A study of Canis lupus familiaris with 18 samples.

Results

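The genes described here encode the machinery that folds, checks and exports secreted proteins in the endoplasmic reticulum (ER), together with the sensors of the unfolded protein response. They were measured in 18 canine primary osteosarcomas. The list held 54 genes, chosen by name with earlier results of these data known. A gene was represented by the probe set of highest mean over the 18 arrays among those that the platform annotation gave to that symbol alone. By this rule 53 of the 54 genes were measured, and CRELD2 had no such probe set. Of the 53, 51 passed the filter on dim probe sets, which 10717 of all 15115 genes with a single symbol passed. The other two, ERN1 (4.85, mean over 18 tumours) and CREB3L2 (5.95), lay below the cut of 6.15 on the scale of log2(signal + 16). ERN1 encodes the sensor IRE1, and CREB3L2 a relative of the transcription factor OASIS.

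Osteosarcoma is a malignant bone tumour whose cells make bone matrix. The tumours came from dogs divided by serum alkaline phosphatase (ALP), with 9 from dogs with a normal and 9 from dogs with an increased concentration. RNA of each tumour was measured on 1 Affymetrix array for the dog, without normal bone for reference. The labels give no breed, age, sex, tumour site or treatment, and the tissue had been frozen at surgery, biopsy or necropsy without a note of which. Each sample was bulk tissue, so fewer cells of a type and less RNA per cell cannot be told apart. Nothing in the labels ties a tumour number to a dog, and the p-values measure the spread between these arrays.

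Proteins bound for secretion enter the ER through the SEC61 translocon, lose their signal peptide and are folded by chaperones and disulfide isomerases. Folded cargo leaves in vesicles with a COPII coat, while misfolded protein is returned to the cytosol and degraded. When folding falls behind, the sensors IRE1, PERK and ATF6 start the unfolded protein response, which raises chaperone and degradation genes. Osteoblasts, the cells that lay down bone, carry a heavy load on this route because they secrete type I procollagen in bulk.

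Before any transformation the arrays had medians from 6.25 to 6.31 (log2), and their rank correlations ranged from 0.929 to 0.980. Of 10 osteoblast markers, 7 passed the filter. Of 6 B and plasma cell markers with a probe set 2 passed it, and CD79A, CD79B, MS4A1 and PAX5 did not. Of 4 epithelial markers with a probe set 1 passed it, and KRT8, EPCAM and CDH1 did not. The difference between the 3' and the middle probe set of actin, a sign of RNA quality, had a median of 1.40 with normal and 1.76 with increased serum ALP. It was highest, 2.17 and 2.12, in increased ALP replicates 3 and 6, whose BioB spike-in signals of 10.29 and 9.81 were also the highest. Levels below are log2(signal + 16), which understates changes of dim probe sets, and are not compared between genes.

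Of the chaperones of the ER lumen, HSPA5 and HSP90B1 spanned narrow ranges and DNAJB9 a wide one. HSPA5, which encodes BiP, the main HSP70 chaperone of the ER and a regulator of all 3 stress sensors, had a lowest, median and highest level of 12.46, 13.25 and 13.48 with normal ALP. With increased ALP the levels were 12.92, 13.03 and 13.51, and the whole range over 18 tumours was 2.07-fold. HSP90B1, the ER form of HSP90 also called GRP94, had levels of 12.55, 13.32 and 13.67 with normal ALP, and of 12.96, 13.32 and 13.75 with increased ALP. For both genes the groups overlapped almost fully, and the lowest tumour was normal ALP replicate 3. DNAJB9, a J-domain cochaperone of BiP, spanned a wider 6.12-fold, and its lowest level, 7.10, was in increased ALP replicate 3.

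Among the lectin chaperones and the enzymes of disulfide formation, CANX (calnexin, a membrane-bound lectin chaperone) spanned 1.65-fold and PDIA6 (a disulfide isomerase) 2.17-fold. ERO1A, the oxidase that recharges disulfide isomerases and a gene known to respond to hypoxia, spanned 6.84-fold with its highest level in normal ALP replicate 2. CALR, the soluble lectin chaperone calreticulin, spanned 1.87-fold at the probe set used. Its other probe sets correlated with that one at r of -0.12, -0.31 and 0.52 over the 18 tumours, so values for CALR hold for 1 probe set and not for the gene.

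Of the stress sensors and their transcription factors, EIF2AK3 (PERK, the kinase that slows translation under ER stress) spanned 6.20-fold. XBP1, the factor whose mRNA IRE1 splices, spanned 2.46-fold, and no separate value for its spliced form was used here. DDIT3, the stress-induced factor CHOP, spanned 3.65-fold, from 7.93 in normal ALP replicate 1 to 9.79 in normal ALP replicate 5. In ER-associated degradation, SYVN1 (the ubiquitin ligase HRD1) spanned 1.28-fold and DERL2 (a derlin of the retrotranslocation machinery) 3.89-fold.

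In the translocon and signal peptidase group, SEC61B and SEC61G, small subunits of the channel, spanned 1.72-fold and 1.69-fold. SSR1, a subunit of the translocon-associated TRAP complex, spanned 7.26-fold, and SEC11C, a catalytic subunit of signal peptidase, 3.56-fold. In COPII transport the widest range was that of SAR1B, a GTPase that starts coat assembly, at 5.14-fold. LMAN1 (ERGIC-53, which carries glycoproteins such as coagulation factors out of the ER together with MCFD2) spanned 7.24-fold, while MCFD2 spanned 1.94-fold. At the probe sets used, members of the same step or complex could thus span narrow and wide ranges. Whether a range belongs to the gene or to its probe set was not tested.

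A pair of tumours stood at the ends of the list, both with normal serum ALP. Normal ALP replicate 5 had the highest level of all 18 tumours for 20 of the 51 members, while it was highest for 4.73% of all genes. There 46 members lay above their mean over the tumours, with a median deviation of 0.45 (log2) against -0.02 over all genes. Normal ALP replicate 3 was lowest for 16 members, against 7.86% of all genes, and 40 members lay below their mean there, with a median deviation of -0.36. The next tumours were increased ALP replicate 4, highest for 9 members, and increased ALP replicate 3, lowest for 8. The map of deviations by tumour shows these columns.

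The steps did not share the low tumour equally. In normal ALP replicate 3 the median deviation was -0.70 for the 9 ER chaperones and -0.59 for the 6 lectin chaperones and disulfide enzymes, and it was 0.07 for the 5 sensors and transcription factors. In increased ALP replicate 3 all 9 COPII genes lay below their mean, with a median deviation of -0.66, while the ER chaperones had a median of 0.03. These are descriptions of single arrays, with no test. Of the 12 marker lists, normal ALP replicate 3 had the highest summed level of endothelial markers and the lowest of cell division and neutrophil markers. It also ranked 17 of 18 from the lowest for cartilage markers, 3 for osteoclast and macrophage markers and 4 for osteoblast markers, and its ALPL level of 8.54 was the lowest with normal ALP. Normal ALP replicate 5 had the highest ALPL level of all, 13.57. The part of cell makeup in either pattern was not tested.

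**Figure D1:**
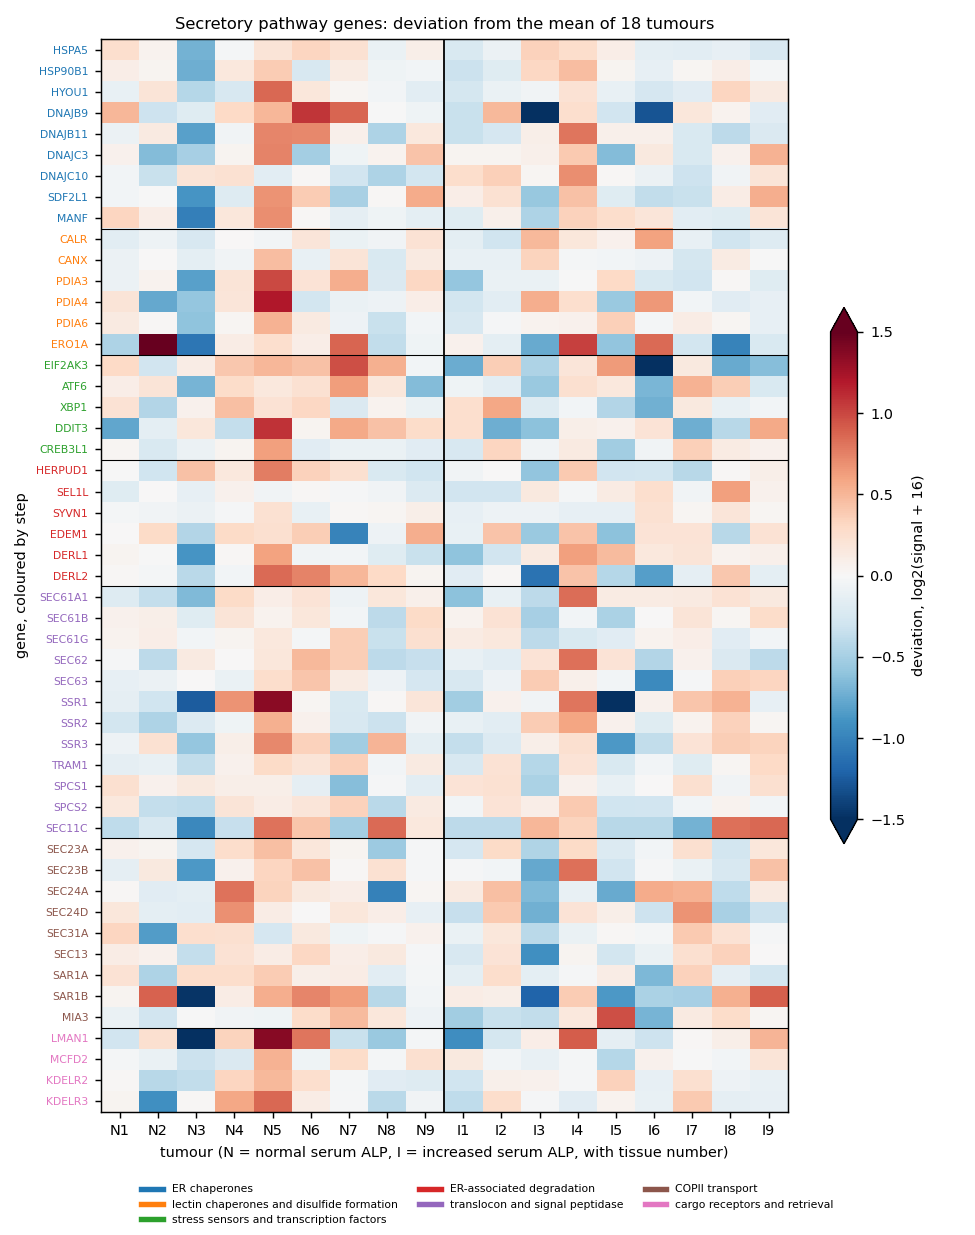
Deviation of each of the 51 members (rows, coloured by step) from its mean over 18 tumours (columns), in log2(signal + 16), with red above and blue below the mean and the colour scale ending at 1.5 in either direction. Column N5 (normal ALP replicate 5) is red in 46 rows, and column N3 (normal ALP replicate 3) is blue in 40.

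Over the 18 tumours the members tended to vary together. The median Pearson r over the 1275 pairs of members was 0.25, against 0.000 over all pairs of the 10717 genes tested. Of the member pairs 16.9% had r above 0.5, against 5.24% of all pairs of genes. The median was 0.36 within the ER chaperones and within the cargo receptors, 0.31 within COPII transport and 0.10 within ER-associated degradation. Pairs share their tumours and arrays, so these values carry no test. Without normal ALP replicates 3 and 5, a choice made after seeing the data, the median over all pairs was 0.14 and the share above 0.5 was 9.88%. The median was 0.36 among the 9 tumours with normal ALP and 0.17 among the 9 with increased ALP. For these smaller sets of tumours no value over all genes was computed.

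The closest pairs are given as examples. DNAJB9 and DERL2 had the highest r of the 1275 pairs, 0.87 (rho 0.81), and it was 0.89 without normal ALP replicates 3 and 5. HSP90B1 and DERL1, a derlin that accompanies misfolded protein out of the ER, had an r of 0.86, which was 0.72 without these tumours. KDELR2 and KDELR3, receptors that return escaped ER chaperones from the Golgi, had an r of 0.83, which was 0.85 without them. Since these pairs were picked for their correlation, no p is given. At the other end, CALR, SPCS1 (a small signal peptidase subunit) and SEL1L (the partner of HRD1) each correlated positively with only 24 of the 50 other members.

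The comparison that the study was built on asked whether tumours differed with the dog's serum ALP. No member differed between the groups by limma at an adjusted p under 0.05, as was the case for all 25754 probe sets tested (0% called higher and 0% lower). At an unadjusted p under 0.05, 0 of 51 members were higher with increased ALP and 2 were lower, against 1.92% higher and 4.22% lower over all probe sets. By sign, 34 members had a lower and 17 a higher estimate with increased ALP, with a median difference of -0.05 against 0.01 over all probe sets. The balance, and in some settings its sign, was not stable. With each array scaled to a common 75th percentile, 24 members were higher and 27 lower. The median over all probe sets was then 0.05, and 39.2% of them had a lower estimate, against 48.5% as reported. With array weights 10 members were higher and 41 lower, and without normal ALP replicate 3 the counts were 11 and 40. In the other settings given here the share of all probe sets with a lower estimate lay between 46.7% and 48.4%. With the actin difference as a covariate, 35 members had a higher and 16 a lower estimate, and the median was 0.12. Without increased ALP replicates 3 and 6, a choice made after seeing the data, 24 were higher and 27 lower. Without normal ALP replicate 5, 28 were higher and 23 lower, and with the GAPDH difference as a covariate 31 were higher and 20 lower.

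The members with an unadjusted p under 0.05 were EIF2AK3 and DNAJB9. EIF2AK3 had a lowest, median and highest level of 7.20, 7.90 and 8.46 with normal ALP and of 5.83, 7.02 and 8.13 with increased ALP. The groups overlapped, with 7 of 9 increased ALP tumours below the mean of the normal group. The estimate for EIF2AK3 was -0.65 ± 0.26 (SE), its 95% interval running from -1.19 to -0.12, and limma's adjusted p was 0.722. DNAJB9 had levels of 8.33, 8.94 and 9.71 with normal ALP and of 7.10, 8.48 and 9.13 with increased ALP. The 2 lowest increased ALP tumours, replicates 3 and 6, lay well apart from the other 7, and 8 of 9 were below the normal mean. The difference was -0.59 ± 0.27 (SE), with an adjusted p of 0.787, and it was -1.02 at the gene's other probe set (adjusted p = 0.608).

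DERL2, the closest partner of DNAJB9, had levels of 9.47, 9.91 and 10.73 with normal ALP and of 8.77, 9.72 and 10.30 with increased ALP, with 7 of 9 below the normal mean. The difference was -0.44 ± 0.21 (SE, adjusted p = 0.815 in limma), and its other probe set gave -0.10. With the actin difference as a covariate the estimates for these 3 genes were closer to 0, at -0.19 for EIF2AK3, -0.06 for DNAJB9 and -0.03 for DERL2. Without increased ALP replicates 3 and 6 they were -0.44, -0.27 and -0.22.

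**Figure D2:**
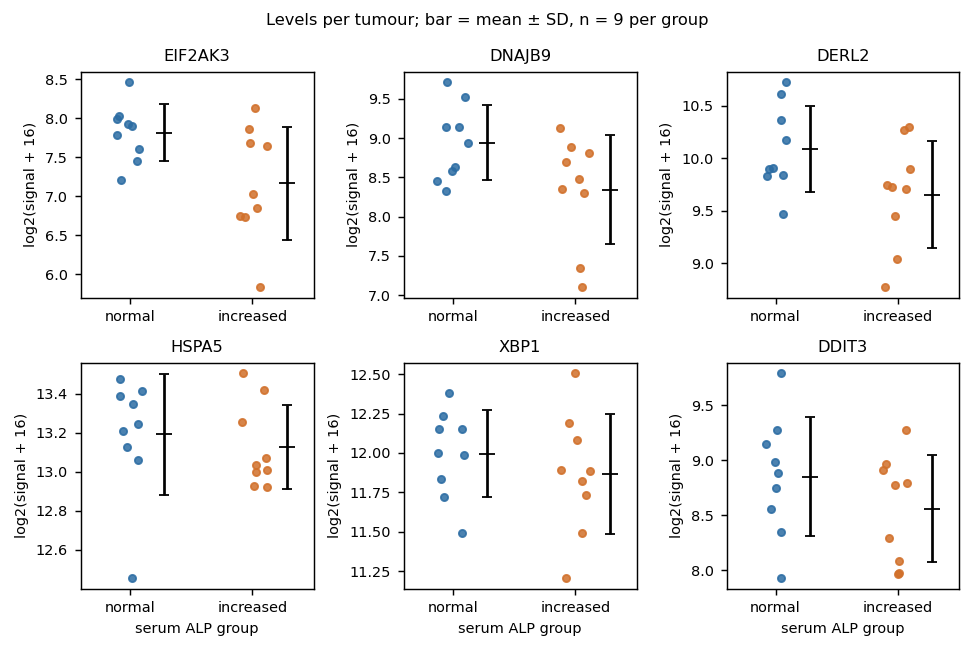
Levels of 6 members per tumour in log2(signal + 16), by serum ALP group, with the mean and SD (n = 9 per group) beside the points. EIF2AK3, DNAJB9 and DERL2 have the largest differences and overlap between groups, and for HSPA5 a single normal ALP tumour, replicate 3 at 12.46, lies apart.

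The remaining members lay closer together. HSPA5 differed by -0.07 ± 0.12 (SE), with a 95% interval from 0.80-fold to 1.14-fold at the probe set used. Its other probe set gave -0.41 (log2, adjusted p = 0.835 in limma), which lay outside that interval. DNAJC10, a J-domain disulfide reductase of the ER, had the highest estimate, 0.25 ± 0.13 (SE, adjusted p = 0.842 in limma), with 8 of 9 increased ALP tumours above the normal mean. Its other probe sets gave 0.03 and -0.45, so the estimate holds for 1 probe set only. SSR2, another TRAP subunit, followed at 0.23 ± 0.13 (SE, adjusted p = 0.843). Of the 9 COPII genes 8 had a lower estimate, between -0.23 for SAR1B and -0.03 for SEC24A, a cargo adaptor of the coat, and SEC31A (the outer coat) had 0.03. With the actin difference as a covariate the estimates of SEC24D, SEC13 and SAR1A were 0.24, 0.15 and 0.12, so the sign of these COPII genes depended on that term. Among the cargo receptors, MCFD2, KDELR3, KDELR2 and LMAN1 had differences of -0.06, -0.05, 0.02 and -0.003, all smaller than their SE of at least 0.12.

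HERPUD1, a scaffold of the HRD1 complex that stress strongly induces, differed by -0.25 ± 0.16 (SE, adjusted p = 0.850) and by -0.64 at its other probe set. PDIA3, the isomerase that works with calnexin and calreticulin, differed by -0.26 ± 0.18 (SE, adjusted p = 0.854) and by -0.90 at its other probe set. DDIT3 and XBP1 differed by -0.29 ± 0.23 and -0.13 ± 0.15 (SE), neither past the threshold. ERO1A differed by -0.23 ± 0.33, CALR by 0.06 ± 0.12 and SEL1L by 0.12 ± 0.11 (SE). SEC61G differed by -0.12 ± 0.10 and TRAM1, a membrane protein beside the translocon, by -0.08 ± 0.12 (SE). Over the 35 genes with further probe sets that passed the filter, 37 of 57 such probe sets had the same sign as the one used.

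**Figure D3:**
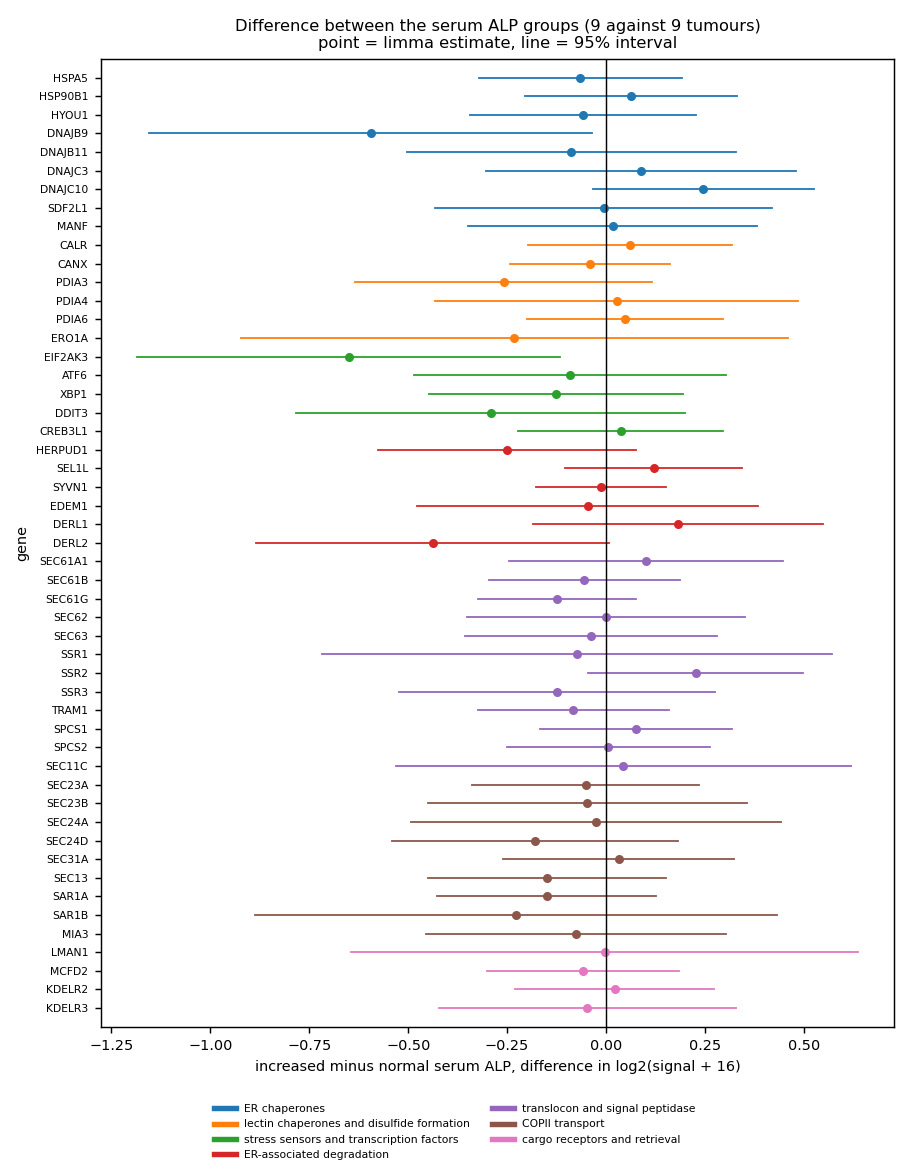
Difference between the serum ALP groups, increased minus normal, for each of the 51 members in log2(signal + 16), coloured by step, with points for the limma estimate and lines for its 95% interval (9 against 9 tumours). The intervals of EIF2AK3 and DNAJB9 end below 0, and all others cross 0.

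Neighbouring parts of the same route gave no call between the groups. Of the 72 genes tested in 7 further lists, 0 passed the threshold by limma. At an unadjusted p under 0.05, 0 were higher and 2 lower with increased ALP, against 1.92% and 4.22% of all probe sets. These 2 were UBE2J1, a ubiquitin-conjugating enzyme of ER-associated degradation, at -0.54 ± 0.22 (SE, adjusted p = 0.748), and COPG1, a subunit of the COPI coat that returns vesicles to the ER, at -0.43 ± 0.20 (SE, adjusted p = 0.796). For the target genes of the integrated stress response, which PERK starts, 3 of 8 had a higher and 5 a lower estimate. Among them ATF3 differed by -0.18 ± 0.25 and PPP1R15A, which ends the response, by -0.21 ± 0.24 (SE).

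The relation to ALPL asked which members follow the level of the tumour's own tissue-nonspecific alkaline phosphatase, a marker of osteoblasts that are depositing mineral. ALPL spanned 134-fold, with a lowest, median and highest level of 8.54, 11.76 and 13.57 with normal and of 6.50, 12.01 and 13.53 with increased serum ALP. Slopes are changes in a member's log2 level per log2 unit of ALPL, fitted over all 18 tumours. Of the 51 members, 39 had a positive slope and 12 a negative one, with a median of 0.05 against 0.0007 over 25752 probe sets. No member passed the threshold, while 0.443% of probe sets passed with a positive and 0.606% with a negative slope. At an unadjusted p under 0.05, 13 members had a positive and 0 a negative slope, against 7.95% and 8.68% of probe sets. The 13 became 21 without increased ALP replicate 2, the tumour of lowest ALPL. They became 9 without normal ALP replicate 3, 9 without the 2 tumours farthest from the ALPL median and 10 with the tissue number as a block. The share over all probe sets is not given for these settings.

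LMAN1 came closest. Its lowest, median and highest levels were 9.23, 10.69 and 12.08 with normal and 9.79, 10.74 and 11.64 with increased serum ALP. The lowest LMAN1 level was in normal ALP replicate 3 and the highest in normal ALP replicate 5, which also had the lowest and highest ALPL among the normal ALP tumours. The slope was 0.24 ± 0.06 (SE), or 1.18-fold per doubling of ALPL, with an adjusted p of 0.0580 in limma. Pearson's r was 0.69 (permutation p = 0.00138, adjusted over 10716 genes 0.0770). Spearman's rho was 0.75 (permutation p = 0.00054, adjusted 0.0459), so that LMAN1 was the 1 member that passed by rank, as did 1.09% of genes with a positive rho. Without the 2 tumours farthest from the ALPL median r was 0.75, and it was 0.89 within the normal group (exact permutation p = 0.00214) and 0.68 within the increased group (exact permutation p = 0.0468).

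DERL1 had a slope of 0.14 ± 0.04 (SE, adjusted p = 0.0673), with levels of 10.26, 11.10 and 11.74 with normal and of 10.54, 11.28 and 11.75 with increased serum ALP. Its r was 0.70 (permutation p = 0.00154, adjusted 0.0806) and its rho 0.65 (permutation p = 0.00434, adjusted 0.0938). Without the 2 farthest tumours r was 0.65, and within the groups it was 0.87 and 0.73 (exact permutation p = 0.0131 and 0.0270). HSP90B1 had a slope of 0.10 ± 0.03 (SE, adjusted p = 0.0685), an r of 0.68 (permutation p = 0.00273, adjusted 0.0962) and a rho of 0.61 (permutation p = 0.00844, adjusted 0.121). Without the 2 farthest tumours r was 0.64, and within the groups it was 0.81 and 0.72 (exact permutation p = 0.0220 and 0.0283). SEC11C followed with a slope of 0.20 ± 0.06 (SE, adjusted p = 0.0810), from levels of 10.14, 10.86 and 11.96 with normal and of 10.40, 10.72 and 11.97 with increased serum ALP. For all 4 genes the levels of the 2 serum ALP groups overlapped.

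Several settings moved these members across the threshold. LMAN1 was called with an offset of 64 (adjusted p = 0.0451), without increased ALP replicate 2 (slope 0.38, adjusted p = 0.0181) and at the other ALPL probe set (adjusted p = 0.0104). With array weights LMAN1, DERL1, HSP90B1, SEC11C and SEC61A1 were called, with adjusted p between 0.0169 and 0.0363. Of all 25752 probe sets 1408 were then called, 632 of them with a positive slope, against 270 and 114 as reported. At the other ALPL probe set 1379 were called, 766 of them with a positive slope. With the serum ALP group as a covariate DERL1 was called (0.0486) and LMAN1 was not.

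**Figure D4:**
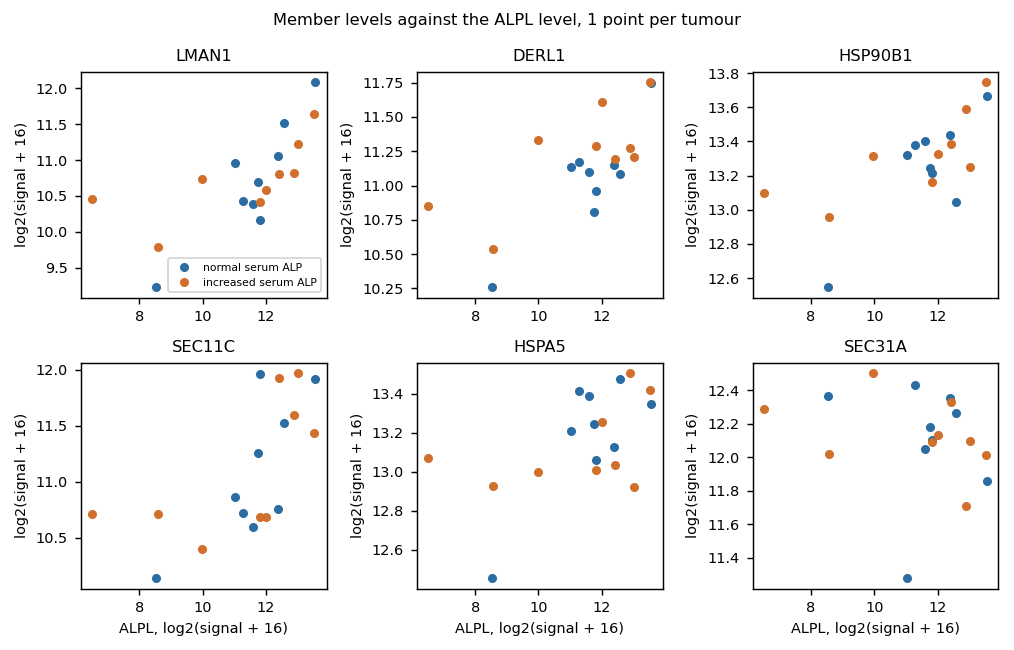
Levels of 6 members (vertical axes) against the ALPL level (horizontal axes), both in log2(signal + 16), with 1 point per tumour, blue for normal and orange for increased serum ALP. LMAN1, DERL1, HSP90B1 and SEC11C are higher in tumours with more ALPL in both groups. Their slopes over all tumours together are 0.24, 0.14, 0.10 and 0.20, that of HSPA5 is 0.08 and that of SEC31A -0.04.

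The steps are given by their counts, and differences between them were not tested. All 6 lectin chaperones and disulfide enzymes, all 4 cargo receptors, 5 of 6 degradation genes, 7 of 9 ER chaperones and 9 of 12 translocon and signal peptidase genes had a positive slope. DNAJB11, a cochaperone that hands unfolded protein to BiP, had 0.14 ± 0.04 (SE, adjusted p = 0.127), and HSPA5 had 0.08 ± 0.03 (SE, adjusted p = 0.176). SEC61A1, the pore of the translocon, had 0.11 ± 0.04 (SE, adjusted p = 0.134), and PDIA3 0.12 ± 0.04 (SE, adjusted p = 0.169). COPII genes were split 5 to 4 with a median of 0.002. SEC23B, an inner coat subunit, had the smallest p among them with 0.08 ± 0.05 (SE, adjusted p = 0.406), and MIA3 (TANGO1, which loads procollagen into COPII carriers) had 0.06 ± 0.05 (SE). Sensors and transcription factors were split 3 to 2, with DDIT3 at 0.10 ± 0.06 and XBP1 at -0.06 ± 0.04 (SE).

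The other members named by step had an adjusted p of 0.212 or higher. PDIA4 and PDIA6, both disulfide isomerases, had 0.11 ± 0.05 and 0.06 ± 0.03, and SSR2 had 0.08 ± 0.03 (SE, adjusted p = 0.212). In ER-associated degradation, SEL1L had 0.06 ± 0.03 and SYVN1 0.02 ± 0.02 (SE). The sensor ATF6 had 0.04 ± 0.05 and SAR1B 0.10 ± 0.08 (SE). The cargo receptors other than LMAN1 had 0.05 ± 0.03 for KDELR2, 0.03 ± 0.03 for MCFD2 and 0.02 ± 0.05 for KDELR3 (SE), so that LMAN1 and its partner MCFD2 had unlike slopes, a difference that was not tested.

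The list of oligosaccharyltransferase and glycan processing genes, which attach and trim sugar chains at the translocon, held a gene that passed. All 11 had a positive slope and 7 an unadjusted p under 0.05. Over all probe sets 7.95% had a positive slope at that p, and 0.443% passed with one. DDOST, a subunit of the transferase, rose with ALPL at 0.20 ± 0.04 (SE, adjusted p = 0.0186 in limma), while RPN2 had 0.16 ± 0.04 (adjusted p = 0.0702) and RPN1 0.14 ± 0.04 (adjusted p = 0.105). All 10 further ER folding enzymes and all 8 genes of the signal recognition particle and its receptor also had positive slopes, and 0 of them passed. ERP29, a luminal folding factor, had 0.18 ± 0.05 (SE, adjusted p = 0.0767), and P4HB, the disulfide isomerase that is also a subunit of prolyl hydroxylase, 0.07 ± 0.02 (adjusted p = 0.157). The COPI coat list was split 5 to 5 and the further COPII and tethering list 7 to 7.

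Markers of several cell types moved with ALPL as well. Over all probe sets 0.443% passed with a positive and 0.606% with a negative slope. At an unadjusted p under 0.05 these shares were 7.95% and 8.68%. All 7 osteoblast markers had a positive slope and 3 passed, with IBSP (bone sialoprotein) at 1.40 ± 0.21 (SE, adjusted p = 0.00466). Of 4 osteoclast markers 4 were positive and 3 passed, among them ACP5 (tartrate-resistant acid phosphatase) at 0.99 ± 0.18 (SE, adjusted p = 0.0140). All 4 cell division markers were positive with an unadjusted p under 0.05, and all 7 endothelial markers were negative, 3 of them with an unadjusted p under 0.05. Fibroblast markers were negative in 6 of 7 cases and macrophage markers in 6 of 8, each with 4 at an unadjusted p under 0.05. Of the 2 positive macrophage markers 1 also had an unadjusted p under 0.05, and the highest macrophage slope was 0.41. All 4 fat cell markers were negative, 2 of them with an unadjusted p under 0.05. None of these 5 lists held a marker past the adjusted threshold. Both plasma and B cell markers that passed the filter had slopes near 0 (-0.03 and -0.02). The part of these cells in the members' slopes was not tested.

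The relation to COL1A1 asked whether the members follow the main secreted cargo, the alpha 1 chain of type I collagen. COL1A1 ran from 12.75 to 14.88, a 4.37-fold span close to the top of the scale, where the highest deposited value was 15.09. Of 51 members 21 had a positive and 30 a negative slope, with a median of -0.01, as over all 25751 probe sets. No member passed (0% of probe sets passed in either direction). At an unadjusted p under 0.05, 1 member had a positive and 2 a negative slope, against 5.02% and 5.67% of probe sets. Without normal ALP replicate 5 the slopes were 36 positive and 15 negative with a median of 0.07, and 7 had a positive and 0 a negative slope at an unadjusted p under 0.05. Without normal ALP replicate 3 they were 29 positive and 22 negative, with a median of 0.008. The share of all probe sets at an unadjusted p under 0.05 is not given for these settings. COL1A1 and ALPL had an r of -0.19 with each other over the 18 tumours, given as a description.

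SEC31A had the smallest p, with levels of 11.28, 12.18 and 12.43 with normal and of 11.71, 12.09 and 12.50 with increased serum ALP. Its slope was 0.32 ± 0.10 (SE, adjusted p = 0.289 in limma), and it was 0.33 and 0.05 at its other probe sets, of which the latter correlated with the one used at r of only 0.06. Its r was 0.63 (permutation p = 0.00718, adjusted 0.352) and its rho 0.79 (permutation p = 0.00019, adjusted 0.130). Without the 2 tumours farthest from the COL1A1 median the slope was 0.67 and r was 0.85, and within the groups it was 0.64 and 0.64 (exact permutation p = 0.0509 and 0.0601). SEC11C had a slope of -0.54 ± 0.21 (SE, adjusted p = 0.381) and DDIT3 of -0.50 ± 0.19 (SE, adjusted p = 0.374). Their r of -0.52 and -0.54 (permutation p = 0.0248 and 0.0191, adjusted 0.436 and 0.418) were -0.24 and -0.32 without the 2 farthest tumours, normal ALP replicates 8 and 5, and the slopes were then -0.34 and -0.38. Within the normal group r was -0.73 for SEC11C and -0.52 for DDIT3 (exact permutation p = 0.0273 and 0.162). Within the increased group, which holds neither tumour, r was -0.20 and -0.68 (exact permutation p = 0.609 and 0.0302). At the other COL1A1 probe set the slope of DDIT3 was -0.93. Their rho were -0.54 and -0.54 (permutation p = 0.0215 and 0.0218, adjusted 0.300 and 0.301).

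The steps are given by their counts, and differences between steps were not tested. Of the COPII genes 7 of 9 had a positive slope, with a median of 0.13, among them SAR1A at 0.20 ± 0.11 and SEC24A at 0.33 ± 0.19 (SE). The other SAR1A probe sets that passed the filter gave -0.09 and -0.11 and correlated with the one used at r of 0.06 and 0.10, so this value too holds for 1 probe set. All 6 lectin chaperones and disulfide enzymes had a negative one, from -0.37 ± 0.29 for ERO1A to -0.002, and 7 of 9 ER chaperones were negative, with HYOU1, a large HSP70-like chaperone, at -0.23 ± 0.11 (SE). The balance of signs depended on the setting. With quantile normalization 27 of 51 members were positive. At the other COL1A1 probe set 31 of 51 members were positive, and without the 2 farthest tumours 32 were. In the latter setting 5 of 25751 probe sets were called, among them that of KDELR3 (slope 0.77 ± 0.12, adjusted p = 0.0406). Over all tumours KDELR3 had 0.24 ± 0.15 (SE, adjusted p = 0.615), and -0.01 at its other probe set that passed the filter. The other members named by step did not pass the threshold either. SSR3, of the TRAP complex, had -0.32 ± 0.16 and SPCS2 0.19 ± 0.10 (SE). SDF2L1, a luminal cochaperone, had -0.26 ± 0.17 and DNAJC10 0.17 ± 0.12 (SE). XBP1 and EIF2AK3 both had 0.10, with SE of 0.14 and 0.27. DERL2, SYVN1 and EDEM1, a mannosidase-like degradation factor, had -0.18 ± 0.21, -0.05 ± 0.07 and -0.08 ± 0.18 (SE). CANX and PDIA3 had -0.06 ± 0.09 and -0.12 ± 0.17 (SE), and MCFD2, KDELR2 and LMAN1 had -0.13 ± 0.10, 0.09 ± 0.11 and -0.17 ± 0.27 (SE).

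In the further COPII and tethering list 9 of 14 genes were positive. STX5, a SNARE of ER-to-Golgi transport, had 0.55 ± 0.11 (SE, adjusted p = 0.136), and CREB3, a relative of OASIS, had 0.47 ± 0.12 (adjusted p = 0.205). Fibroblast markers had a positive slope in 5 of 7 cases and cell division markers a negative one in 4 of 4, with 0 past the threshold.

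The relation to HSPA5 asked which of the other members rise with BiP, the usual readout of the unfolded protein response. Of 50 members tested 40 had a positive and 10 a negative slope, with a median of 0.40 log2 units per unit of HSPA5 against -0.02 over 25752 probe sets. No member passed (0% of probe sets passed in either direction). At an unadjusted p under 0.05, 10 members had a positive and 1 a negative slope, against 5.04% and 5.01% of probe sets. HSPA5 spanned only 2.07-fold, and 1 tumour, normal ALP replicate 3, set its low end. Without it 32 of 50 slopes were positive, the median was 0.21, and 5 members had a positive slope at an unadjusted p under 0.05. That last count was 19 without increased ALP replicate 3. The share of all probe sets at that p is not given for these settings.

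DNAJB11 followed BiP most closely. Its levels were 10.62, 11.50 and 12.17 with normal and 11.04, 11.21 and 12.24 with increased serum ALP. The slope was 1.28 ± 0.26 (SE, adjusted p = 0.277 in limma) and r was 0.78 (permutation p = 5e-05, adjusted 0.179), with a rho of 0.73 (permutation p = 0.00102, adjusted 0.377). Without the 2 tumours farthest from the HSPA5 median r was 0.76, and within the groups it was 0.81 and 0.73 (exact permutation p = 0.00389 and 0.0213).

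HSP90B1 had a slope of 0.78 ± 0.18 (SE, adjusted p = 0.362), an r of 0.74 (permutation p = 0.00087, adjusted 0.350) and a rho of 0.58 (permutation p = 0.0136, adjusted 0.435). Its r was 0.46 without the 2 farthest tumours, and 0.74 and 0.82 within the groups (exact permutation p = 0.0597 and 0.00738). PDIA3 had a slope of 1.07 ± 0.28 (SE, adjusted p = 0.362), an r of 0.69 (permutation p = 0.00214, adjusted 0.411) and a rho of 0.65 (permutation p = 0.00425, adjusted 0.432). Its r was 0.65 without the 2 farthest tumours, and 0.75 and 0.54 within the groups (exact permutation p = 0.0281 and 0.148). At the other HSPA5 probe set, whose level correlated with the one used at r of 0.87, DNAJB11 and PDIA3 were called, with slopes of 0.62 and 0.61 (adjusted p = 0.0464 and 0.0433). Of all 25752 probe sets 165 were called there, 141 of them with a positive slope.

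LMAN1 (1.63 ± 0.47), DERL1 (0.91 ± 0.29), PDIA6 (0.65 ± 0.18) and MANF (0.75 ± 0.30, SE), a secreted ER stress protein that binds BiP, also had an unadjusted p under 0.05. Of the stress sensors, EIF2AK3 and ATF6 had slopes of 0.80 ± 0.55 and 0.55 ± 0.35 (SE). The transcription factors XBP1 and DDIT3 had -0.07 and -0.14 ± 0.48 (SE), and the median over these genes and CREB3L1 was 0.002. COPII genes had a median of 0.08, with SEC23B at 0.55 ± 0.36, SAR1B at 0.91 ± 0.59 and SEC31A at -0.34 ± 0.26 (SE). CANX had 0.34 ± 0.17, SEC62 (a translocon-associated receptor) 0.59 ± 0.30, DERL2 0.55 ± 0.45 and SYVN1 -0.04 ± 0.16 (SE). KDELR2 had 0.46 ± 0.21 with an unadjusted p of 0.0444, while MCFD2 and KDELR3 had 0.19 ± 0.23 and 0.16 ± 0.35 (SE). SPCS1 had the 1 negative slope with an unadjusted p under 0.05, -0.47 ± 0.20 (SE, adjusted p = 0.451), while SPCS2, of the same complex, had 0.56 ± 0.20 (adjusted p = 0.392). Outside the members, all 11 oligosaccharyltransferase and glycan processing genes and all 10 further folding enzymes had a positive slope, with RPN2 at 1.27 ± 0.30 and P4HB at 0.59 ± 0.17 (SE), while the 8 integrated stress response genes were split 4 to 4. ALPL and HSPA5 had an r of 0.55 (permutation p = 0.0195, adjusted 0.200) and a rho of 0.44 (permutation p = 0.0687, adjusted 0.284) with each other, so their slopes are not separate observations. All 4 cell division markers had a positive slope with an unadjusted p under 0.05, against 5.04% of all probe sets. All 7 endothelial markers had a negative one, 4 of them with an unadjusted p under 0.05, against 5.01%. The part of either marker list in the slopes was not tested.

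**Figure D5:**
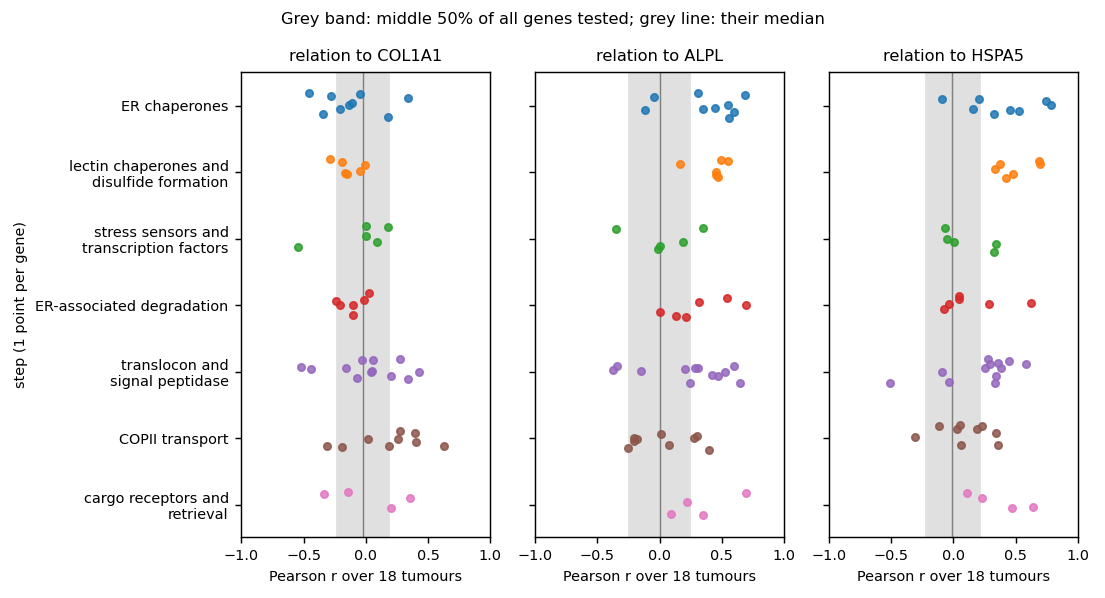
Pearson r over 18 tumours of each member with COL1A1, ALPL and HSPA5 (panels), by step (rows, 1 point per gene), with a grey band for the middle 50% of all genes tested and a line for their median. For COL1A1 the points spread about the band (median r -0.03). For ALPL and HSPA5 the median of the points (r 0.30 and 0.29) lies right of the band, which ends at 0.25 and 0.21. There 39 of 51 and 40 of 50 points are positive. In both panels all lectin chaperone and cargo receptor points lie right of 0, while every other row holds points on either side of 0. For ALPL the 1 negative point of ER-associated degradation lies at about 0.

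Whether a slope differed between the serum ALP groups was tested by an interaction term. By limma no member passed the adjusted threshold in any of the 3 relations, and 0% of all probe sets did. At an unadjusted p under 0.05 the slopes of 1 of 51 members on COL1A1, 11 of 51 on ALPL and 7 of 50 on HSPA5 differed, against 2.7%, 3.84% and 6.92% of probe sets. All 11 had a lower slope on ALPL in the increased group. Without normal ALP replicates 3 and 5, a choice made after seeing the data, 4 of 51 did. Of all probe sets 4.55% then differed in either direction. For COL1A1 and HSPA5 the counts were 0 of 51 and 3 of 50, against 2.24% and 4.76% of probe sets. For LMAN1, in all 18 tumours, the difference in the slope on ALPL, increased minus normal, was -0.38 ± 0.12 (SE), with an adjusted p of 0.998.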

How the data were processed

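Total RNA from 18 frozen canine osteosarcomas had been labelled and run on 1 array each, per the labels' protocols. The deposited values are log2 signals of 43035 probe sets, and per the submitters' processing notes MAS5 was used, without a version. The normalization is not given in the sources used here, and the depth of an array is not a count, so that the 9 arrays per group limit the precision.

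After setting aside 111 control probe sets, 16 was added to each linear signal and log2 taken. Only the 25754 probe sets with a mean at or above the 40th percentile were kept. Groups, and slopes on COL1A1, ALPL or HSPA5, were fitted in R 4.3.3 by limma 3.58.1 for each probe set (lmFit, then eBayes with a trend), two-sided, with Benjamini-Hochberg adjustment over all probe sets and a threshold of 0.05. Correlations used 100000 permutations, adjusted over 10716 genes, or all permutations within a group, with SciPy 1.17.1 and NumPy 2.4.6. The scripts were tested on simulated data.

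Gene names came from the platform annotation, and 51 of the 53 members matched the RefSeq gene table by identifier. Of the 53 probe sets 20 are of kinds that can share probes between transcripts. Members and gene lists were chosen with earlier results of these data known. By the naming rule, the 3 members per step with the smallest p in each comparison, or all of a step of 4, and up to 3 genes of each other list are given. Members named for a range, a pair or a probe set were chosen after their values were seen. The alternatives tried were offsets, filters, normalizations, array weights, no trend, RNA quality and group covariates, the tissue number as a block, other probe sets, and left-out arrays.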

Additional observations from a re-analysis of the deposited data

Results flagged for a closer look

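Within each group of 9 tumours, the highest or lowest level of a member was set against its nearest neighbour by Dixon's ratio. Of 106 groups tested, 15 had an end value that stood apart beyond its 95% critical value, where chance gives about 1 in 20 groups, or 5.3.

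Normal ALP replicate 3 was low for 4 members. Its level was 12.46 for HSPA5, 10.69 for MANF, 9.24 for SEC23B and 10.89 for SEC13, with the nearest other tumours at 13.06, 11.57, 9.98 and 11.23. Normal ALP replicate 5 was high for 3 members, at 7.40 for HYOU1, 12.82 for PDIA4 and 7.55 for CREB3L1 (OASIS, a factor that drives collagen secretion in mouse bone), with the nearest at 6.74, 11.82 and 6.98.

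In the other normal ALP tumours, SPCS1 was 12.23 in replicate 7 (nearest 12.72), SEC24D was 11.68 in replicate 4 (nearest 11.17) and SEC31A was 11.28 in replicate 2 (nearest 11.86).

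In the increased ALP group, replicate 3 was low for SPCS1 at 12.40 (nearest 12.76) and for SEC13 at 10.34 (nearest 10.97). DNAJB11 was 12.24 in replicate 4 (nearest 11.52), SEC63 (a translocon partner that recruits BiP) was 10.71 in replicate 6 (nearest 11.43) and MCFD2 was 10.68 in replicate 5 (nearest 11.00). The cause of these values was not tested.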

How the results depend on the processing

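The number of members called was 0 in all 4 comparisons as reported. It stayed at 0 for the ALP groups under every alternative. It was 1 for COL1A1 without the 2 farthest tumours. For ALPL it was 1 with an offset of 64, a filter at the 60th percentile or the ALP group as a covariate, 5 with array weights, 4 at the other ALPL probe set, and 0 to 2 when 1 array was left out. For HSPA5 it was 2 at the other HSPA5 probe set. The number of probe sets called was 0 for COL1A1 as reported, 4 with array weights, 1 with the actin covariate, 5 without the 2 farthest tumours and 0 to 2 with 1 array left out. For HSPA5 it was 0, and 1 with 75th percentile scaling or the GAPDH covariate, 165 at the other probe set and 0 to 4 with 1 array left out. For ALPL 270 were called, against 1408 with array weights, 1379 at the other probe set, 1 without the 2 farthest tumours and 69 (without increased ALP replicate 1) to 632 (without normal ALP replicate 2) with 1 array left out. The cause of these shifts was not tested.

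The tissue numbers were not used as pairs in the main fits. Same-numbered tumours correlated above 0.1 in 4 of 9 pairs (-0.16 to 0.27), and 0 of 9 correlated best with their own number. These correlations have no reference value and cannot show whether the tumours were matched by number. With the number as a replicate block 91 probe sets were called for ALPL, the slopes of MIA3 and KDELR3 on ALPL were -0.003 and -0.0787 and that of KDELR3 on HSPA5 was -0.0976, and no call of a member changed.

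Other named members that changed sign were uncalled. For the ALP groups, LMAN1 was 0.0238 with quantile normalization and 0.0395 with 75th percentile scaling, and CALR and KDELR2 were -0.0368 and -0.0543 with array weights. With the actin covariate the differences were -0.1195 for CALR, 0.1604 for XBP1, 0.1155 for SAR1A, 0.2431 for SEC24D, 0.1492 for SEC13, 0.192 for KDELR3 and 0.3523 for LMAN1. With the GAPDH covariate they were -0.0829 for CALR, 0.0143 for XBP1, 0.0066 for TRAM1, 0.0177 for MCFD2 and 0.2174 for LMAN1. Without the 2 arrays of highest BioB signal, a choice made after seeing the data, CALR was -0.0858 and LMAN1 0.0275, and on HSPA5 DDIT3 was 0.0879 and SYVN1 0.0194. On COL1A1 without the 2 farthest tumours PDIA3 was 0.0605, DERL2 0.1922 and SYVN1 0.0139, and at the other probe set CANX was 0.0021, PDIA3 0.069 and LMAN1 0.153. On ALPL without the 2 farthest tumours ATF6 was -0.0297. On HSPA5 SYVN1 was 0.0259 with 75th percentile scaling and 0.0253 with array weights, and DDIT3 was 0.3135 without the 2 farthest tumours.

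With 1 array left out, the ranges that crossed 0 were -0.0288 to 0.0837 for KDELR2, -0.1902 to 0.1668 for LMAN1, -0.1651 to 0.0571 for KDELR3, -0.1038 to 0.0026 for MCFD2 and -0.0109 to 0.1019 for CALR between the ALP groups. On COL1A1 they were -0.2024 to 0.0296 for CANX, -0.2872 to 0.0837 for PDIA3 and -0.5179 to 0.11 for LMAN1, and on ALPL -0.0141 to 0.0713 for KDELR3. On HSPA5 they were -0.341 to 0.0638 for DDIT3, -0.0118 to 0.8953 for SEC23B, -0.0773 to 1.45 for SAR1B and -0.0304 to 0.258 for MCFD2.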
